A study of Sus scrofa with 8 samples.

Results

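The genes described here encode the collagens and other extracellular matrix proteins of muscle. They were taken by name from a list of 10 matrix genes, and a gene was kept where the platform annotation gave a probe set that gene's symbol and no other. COL1A1 and COL6A1 had no such probe set and were passed over. The other 8 genes, of 6765 genes named in this way on the array, were represented by 20 probe sets: 3 fibrillar collagens (COL1A2, COL3A1 and COL5A1) and 5 other matrix genes (FBN1, FN1, SPARC, DCN and LUM). Samples of longissimus dorsi, a muscle that runs along the spine, were hybridised to 1 one-colour Affymetrix porcine array per animal, from 4 Korean native pigs aged 7 months and 4 Yorkshire pigs aged 6 months. Both breeds were kept under the same conditions, per the labels. The Korean native pig is a local Korean breed and the Yorkshire a commercial breed selected for growth. The breeds differ in age by design, so that the effects of age and breed cannot be told apart, and the arrays within a breed are labelled as biological replicates.

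Muscle fibres are wrapped in layers of connective tissue made mainly by fibroblasts. Its tensile scaffold consists of fibrillar collagens, in which 3 chains wind into a helix and the helices pack into fibrils. Type I and type III collagen make up most of the fibrils, and type V collagen starts their assembly and limits their width. The fibrils are finished by proteins that bind them: small leucine-rich proteoglycans such as decorin (DCN) and lumican (LUM) coat the fibril surface and control its width, and SPARC binds collagen and calcium. Fibronectin (FN1) links the fibrils to integrins on cells, and fibrillin (FBN1) forms the microfibrils that carry elastin and store growth factors of the TGF-beta family. Connective tissue of this kind contributes to the toughness of meat.

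Of the 20 probe sets, 10 were tested, at least 1 for each of the 8 genes, and the other 10 were among the dimmest 40% of the array. The probe set of highest mean signal was taken for a gene where 1 value was needed. Values are linear signal intensities, scaled to a common level per array by the authors, and levels of different matrix genes were not set against each other. Signals were summed over genes for cell type markers only, and such sums are weighted to the brightest probe sets. The 23 negative control probe sets had a 95th percentile of 91.5, and all 10 tested probe sets lay above it on all 8 arrays. In a piece of muscle, fewer cells of a type and less RNA per cell cannot be told apart. All 10 muscle fibre markers with a probe set were bright, with breed means from 20963 for DES in Yorkshire pigs to 98240.2 for MYLPF in Yorkshire pigs. Median signals of the arrays lay between 135.0 and 185.2. The log2 ratio of 3' to 5' signal of housekeeping transcripts, a measure of RNA integrity, ranged from 0.87 to 3.33 and was highest on Korean native pig 1 and Yorkshire 3 (3.03). Its breed means were 1.70 ± 1.11 and 1.70 ± 0.95 (SD, n = 4; p = 1 by a two-sided exact permutation test). The hybridisation controls, spiked in before the arrays were hybridised, were brighter on replicates 1 and 3 of both breeds than on replicates 2 and 4.

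No matrix gene differed between the breeds beyond the spread of the animals, and no pair of breed ranges was separate. All 8 genes had a lower mean log2 signal in Korean native pigs, by 0.12 for COL3A1 to 0.65 for LUM, where 2685 of all 5331 genes tested (50.4%) lay below 0. The median over the 8 was -0.33, against -0.0025 over all genes. By limma with Benjamini-Hochberg adjustment over 14399 probe sets, 0 of the 10 tested matrix probe sets passed an adjusted p of 0.05 (all at adjusted p = 0.999), beside 0.0% of all probe sets. None was under an unadjusted p of 0.05 (smallest 0.0956, for FBN1), where 3.96% of all probe sets were. In 0 of the 10 did the 4 arrays of a breed all lie above or all below those of the other, where 2.56% of all probe sets did.

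**Figure D1:**
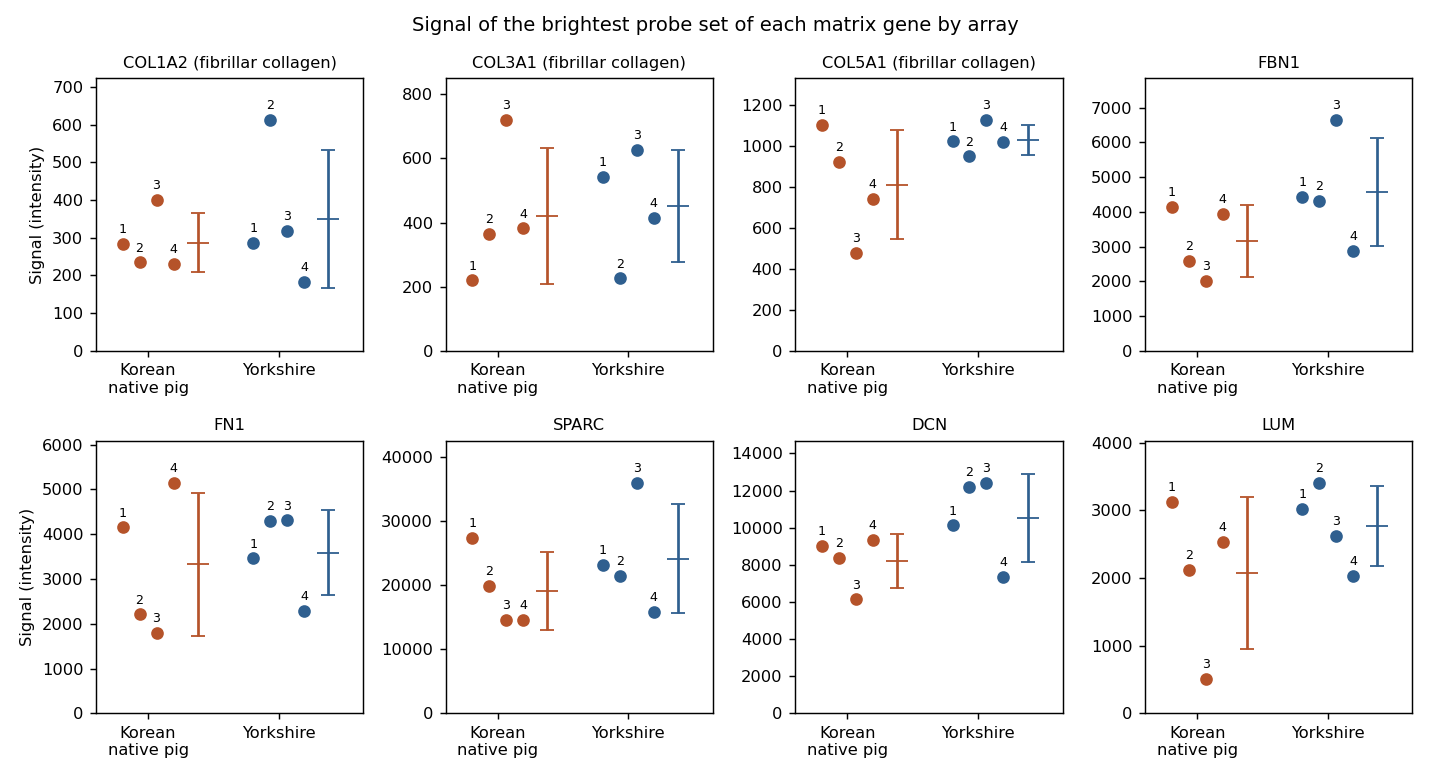
Signal intensity (linear axis from 0) of the brightest probe set of each matrix gene on each array, with replicate numbers beside the points and the mean and SD (n = 4) as a bar to the right. The breeds overlap in all 8 panels, and Korean native pig 3 is the lowest array for COL5A1, FBN1, FN1, DCN and LUM and the highest for COL3A1.

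Among the fibrillar collagens, COL1A2 encodes the second chain of type I collagen, the main collagen of tendon, bone and the muscle sheath. Its probe set Ssc.24975.1.S1_at had signals of 283, 234, 399 and 231 in Korean native pigs 1 to 4 and 286, 612, 317 and 184 in Yorkshire pigs 1 to 4. The highest and the lowest array were both Yorkshire, numbers 2 and 4. The log2 change, Korean native pig minus Yorkshire, was -0.17 (SE 0.33, 95% interval -0.89 to 0.54). It was 0.12 without Yorkshire 2, so the sign for this probe set rested on that animal. A second COL1A2 probe set, among the dimmest 40% of the array, was at -0.57 (SE 0.44) in a fit without a filter. It read below 91.5 on 4 of 8 arrays, and its r with the brighter one was 0.57 (rho 0.69).

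COL3A1 encodes the chain of type III collagen, which is found with type I in the layers around fibres and in vessel walls. Signals were 219, 366, 720.2 and 382 in Korean native pigs and 542, 226, 628 and 414 in Yorkshire pigs. Each breed spanned a range of over 400 units, and Korean native pig 3 was the brightest of all 8. Between the breeds COL3A1 differed by -0.12 (log2, SE 0.36, 95% interval -0.91 to 0.67). Leaving out Korean native pig 1 gave 0.13, and leaving out Yorkshire 3 gave 0.06.

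COL5A1, which encodes the main chain of type V collagen, had signals of 1102, 922, 477 and 742 in Korean native pigs and 1022, 949, 1127 and 1020.4 in Yorkshire pigs on Ssc.4993.1.A1_at. The Yorkshire values were close together (1029.6 ± 73.2) and the Korean native pig values spread further (811 ± 267, SD, n = 4), with animals 2, 3 and 4 below all Yorkshire pigs. On the log2 scale the change was -0.39 (SE 0.24, 95% interval -0.92 to 0.14), and -0.17 without Korean native pig 3. A second tested COL5A1 probe set, Ssc.9002.1.A1_at, showed no such gap: it ranged from 563 to 648 in Korean native pigs and from 460.4 to 722 in Yorkshire pigs. Its log2 change was -0.03 (SE 0.20), and it turned to 0.05 with arrays centred on their median.

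Of the other matrix genes, FBN1, for fibrillin, had the lowest p of the 10 probe sets. Ssc.16045.2.A1_at read 4129, 2585, 1998 and 3933 in Korean native pigs and 4426, 4301, 6643 and 2868 in Yorkshire pigs. Yorkshire 3 was the highest by a wide margin, and Korean native pigs 2 and 3 were the 2 lowest. For FBN1 the log2 change was -0.52 (SE 0.29, 95% interval -1.15 to 0.11), and -0.32 without Yorkshire 3. A dimmer FBN1 probe set gave a like mean change, -0.59 (SE 0.42), but from other animals: its lowest array was Korean native pig 1 (120.4) and its highest Yorkshire 2 (818). Over the 8 arrays the 2 FBN1 probe sets had a Pearson r of -0.0042 and a Spearman rho of 0.14, so the matching breed changes came from unlike profiles.

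LUM, for lumican, had the largest difference of the 8 genes and the widest spread. Signals were 3127, 2126, 511 and 2537 in Korean native pigs and 3021, 3409, 2618 and 2029 in Yorkshire pigs. Apart from Korean native pig 3, at 511, the breeds covered nearly the same range. For LUM the log2 change was -0.65 (SE 0.45, 95% interval -1.63 to 0.34), and -0.08 without Korean native pig 3. The SD of LUM within breeds, 0.84 log2 units, was more than double the median over all genes tested, 0.36.

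DCN, for decorin, lies next to LUM in the Sscrofa11.1 gene table, with 0 genes between them. Its signals were 9040.2, 8379.9, 6134 and 9352 in Korean native pigs and 10123, 12192, 12424 and 7337 in Yorkshire pigs. Yorkshire 1, 2 and 3 lay above all Korean native pigs, and Yorkshire 4 was the second lowest of the 8. For DCN the log2 change was -0.34 (SE 0.21, 95% interval -0.81 to 0.13), and -0.21 without Korean native pig 3. DCN was the steadiest of the 8 genes, with an SD within breeds of 0.32.

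SPARC is a glycoprotein that binds collagen and calcium. Its signals were 27364, 19910.0, 14569.7 and 14511 in Korean native pigs and 23132, 21358, 35935 and 15835 in Yorkshire pigs. Its 2 brightest arrays, Yorkshire 3 and Korean native pig 1, were also the 2 of highest 3' to 5' ratio. Over the 8 arrays SPARC followed that ratio with a Pearson r of 0.77 and a Spearman rho of 0.55 (exact permutation p = 0.0245 and 0.171; adjusted p = 0.587 for r over 24 relations of gene and array measure), and r was 0.08 without those 2 arrays. The part of RNA integrity in the SPARC values was not tested. For SPARC the log2 change was -0.32 (SE 0.27, 95% interval -0.92 to 0.28). It was -0.11 without Yorkshire 3 and -0.51 without Korean native pig 1.

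FN1, for fibronectin, had signals of 4152, 2211, 1799 and 5151 in Korean native pigs and 3461, 4302, 4309 and 2292 in Yorkshire pigs. The Korean native pigs held both the highest animal, number 4, and the lowest, number 3. For FN1 the log2 change was -0.19 (SE 0.33, 95% interval -0.92 to 0.53), and 0.05 without Korean native pig 3.

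**Figure D2:**
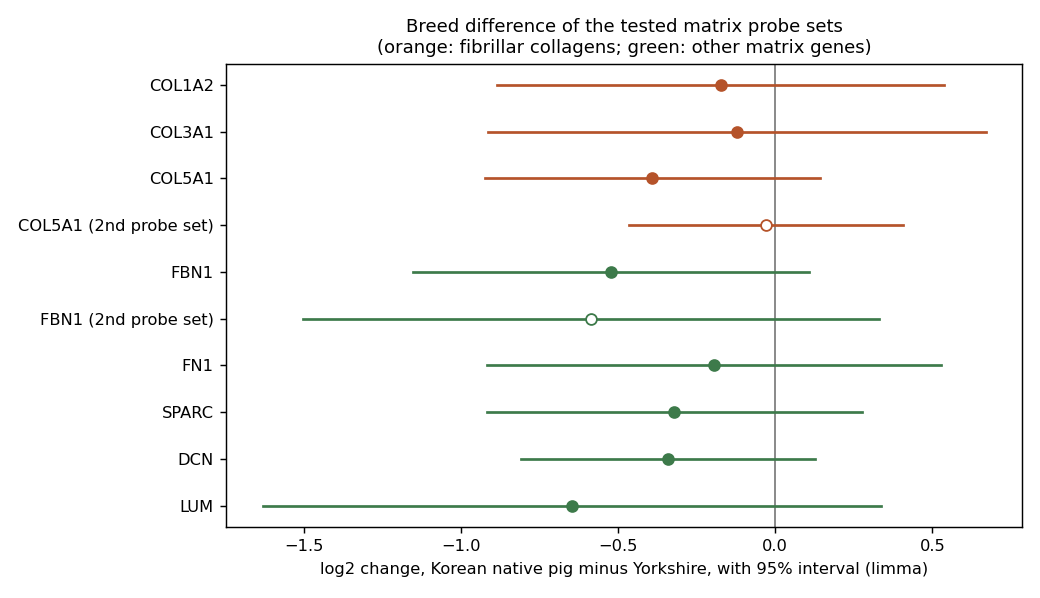
log2 change (Korean native pig minus Yorkshire) with its 95% interval from limma for the 10 tested matrix probe sets, with filled points for the probe set that represents the gene and open points for a second one. All 10 points lie below 0, from -0.65 for LUM to -0.03 for the second COL5A1 probe set, and all 10 intervals include 0. With arrays centred on their median the second COL5A1 probe set lies at 0.05.

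The 10 untested probe sets were dim, between 1.71 and 177 on any array, and 3 of them lay below 91.5 on all 8 arrays. Fitted without the filter, 3 of the 10 were at an unadjusted limma p under 0.05, beside 4.48% of all probe sets in that fit, and 0 passed (all at adjusted p near 1.00). They did not share a direction. For Ssc.31199.1.S1_at of COL5A1 the change was 1.01, with Yorkshire signals of 12.5 to 22.0, all below the negative control limit, and Korean native pig signals of 10.9 to 130.3. For Ssc.16329.1.A1_at of the same gene it was -1.07, with 6 of 8 arrays below the limit. For Ssc.22199.1.A1_at of FN1 it was 1.16, with 5 of 8 below. The rest were at an unadjusted limma p above 0.05. Among them the change was -0.57 for COL1A2, -0.22 for SPARC and -0.45 for DCN. It was 0.06 and -0.10 for the remaining COL5A1 probe sets and 0.60 and 0.37 for those of FN1. The dim probe sets of COL5A1 thus gave changes of both signs. Those of FN1 all lay above 0, where the tested FN1 probe set was at -0.19. No level is read from the dim probe sets.

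The second question was whether the fibrillar collagens and the other matrix genes varied together from animal to animal. Each value was expressed as its deviation, in log2 units, from the mean of its probe set over the 8 arrays. Averaged over FBN1, FN1, SPARC, DCN and LUM, the deviation was 0.29, -0.25, -0.96 and 0.10 in Korean native pigs 1 to 4 and 0.23, 0.35, 0.56 and -0.33 in Yorkshire pigs 1 to 4. Their mean was thus low in 1 Yorkshire pig and 2 Korean native pigs and high in Yorkshire 3. Averaged over the collagens it was -0.19, -0.14, 0.10 and -0.22 and then 0.17, 0.09, 0.33 and -0.14, a smaller range because the 3 genes offset each other.

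Korean native pig 3 held the sharpest contrast between the genes. COL3A1 deviated by 0.78 and COL1A2 by 0.38 there, while LUM deviated by -2.02, COL5A1 by -0.86, FBN1 by -0.85, FN1 by -0.84, DCN by -0.57 and SPARC by -0.50. This array was the lowest of the 8 for 5 of the 8 matrix genes, and for 14.7% of all 5331 genes tested. Its array measures were within the range of the others, with a 3' to 5' ratio of 1.40, a median signal of 174.8 and hybridisation controls of 13.70. On Korean native pig 3 the second FBN1 probe set read 243 and the second tested COL5A1 probe set 602. Neither value was the lowest of its probe set. Yorkshire 2 held a contrast within the collagens, with COL1A2 at 0.96 and COL3A1 at -0.77.

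Collagens minus other genes, per animal, gave 0.09 ± 0.69 for the Korean breed and -0.09 ± 0.20 for the Yorkshire (SD, n = 4), a difference of 0.18. Korean native pig 3 stood at 1.06 and the other 7 animals between -0.48 and 0.19. Without that animal the difference was -0.15, so its sign rested on 1 array. The median breed change was -0.17 over the 3 collagens and -0.34 over the 5 other genes, and without Korean native pig 3 the order turned, to -0.33 and -0.21. A breed effect that differs between the 2 groups of matrix genes was therefore not seen apart from that animal.

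**Figure D3:**
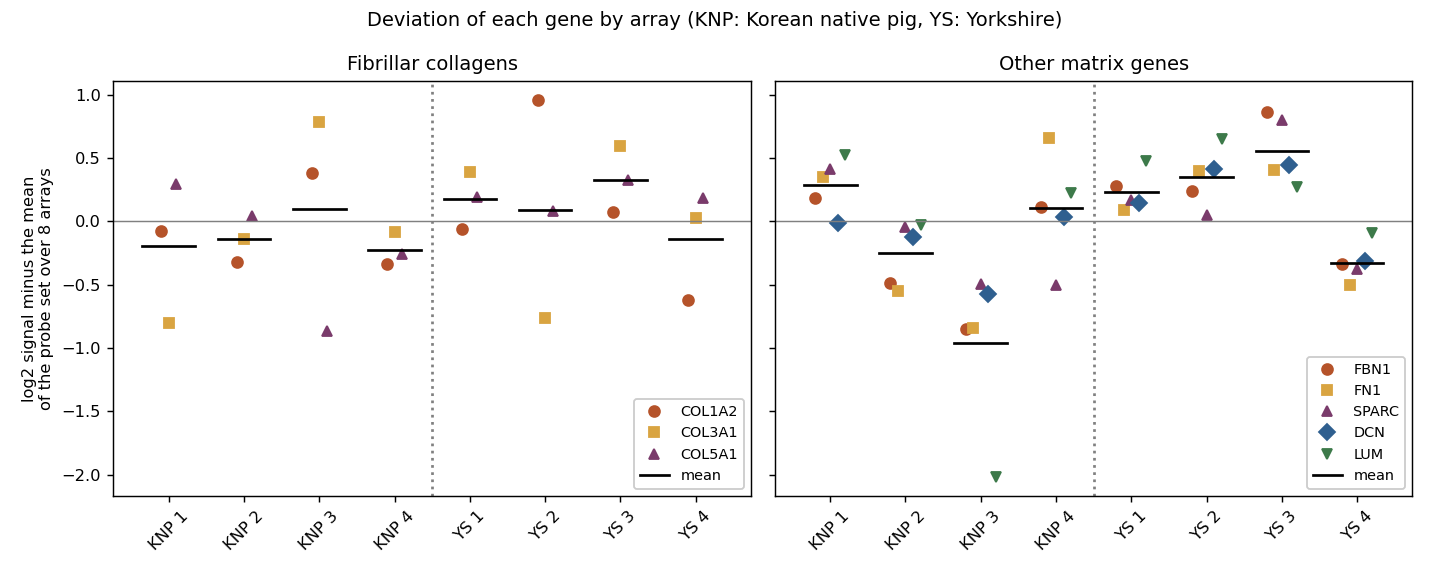
Deviation of each gene from its mean over the 8 arrays (log2 units) by array, with the fibrillar collagens on the left, the other matrix genes on the right, black bars for the mean of the panel's genes and a dotted line between the breeds. On the right the mean is lowest on Korean native pig 3 (-0.96) and highest on Yorkshire 3 (0.56), and on the left COL3A1 and COL1A2 lie apart from each other on Yorkshire 2 and above COL5A1 on Korean native pig 3.

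Correlations over the 8 arrays were computed for the 28 pairs of genes, with the brightest probe set of each gene. The second tested probe set had r = -0.0042 with it for FBN1 and 0.29 for COL5A1 (rho 0.14 and 0.81). The correlations of FBN1 and COL5A1 therefore describe their brighter probe set only. The difference between the groups of pairs was not tested. All 10 pairs among FBN1, FN1, SPARC, DCN and LUM were positive, with r from 0.45 to 0.91 and a median of 0.77. All 3 pairs among the collagens had negative r, from -0.43 to -0.15, and the 15 pairs between the groups had a median of 0.17. Spearman rho did not share that sign: 0.19 for COL1A2 and COL3A1, 0.02 for COL1A2 and COL5A1, and -0.12 for COL3A1 and COL5A1. Among the other matrix genes rho was from 0.24 to 0.93. The closest pair was FBN1 and DCN, with r = 0.91 and rho = 0.93 (exact permutation p = 0.00213 and 0.00223; adjusted p = 0.0521 and 0.0625 over the 28 pairs). Its r was 0.76 without the 2 arrays farthest from the median of FBN1, Korean native pig 3 and Yorkshire 3, and 0.88 on deviations from the breed means. By r with DCN, FBN1 had rank 5 among 5330 genes, and by r with FBN1, DCN had rank 12. Other pairs ranked lower: in FN1 and SPARC, the pair of lowest r among the other matrix genes, the ranks were 802 and 937.

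DCN and LUM had r = 0.80 and rho = 0.76 (exact permutation p = 0.00523 and 0.0368; adjusted p = 0.0521 and 0.147), and r = 0.87 without the same 2 arrays. FBN1 and FN1 had r = 0.85 and rho = 0.69 (exact permutation p = 0.00744 and 0.0694; adjusted p = 0.0521 and 0.243), and r = 0.85 without them. With the 2 arrays farthest from the median of LUM left out instead, DCN and LUM had r = 0.57. For FBN1 and FN1 r was 0.60 without the 2 arrays farthest from the median of FN1. Of the 28 pairs, 10 were at an unadjusted p under 0.05 for r and 0 passed after adjustment. The brightness of the hybridisation controls splits the arrays into 4 and 4, too few for a correlation within each.

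COL5A1 had positive r with all 5 other matrix genes. It was 0.87 with LUM, 0.71 with SPARC, 0.70 with FBN1, 0.66 with DCN and 0.48 with FN1. For 4 of the 5, r fell when Korean native pig 3 was left out. Without that animal r was 0.18 with LUM, 0.36 with FBN1, 0.18 with DCN and -0.19 with FN1, beside 0.13 with COL1A2 and 0.13 with COL3A1. For COL5A1 and LUM rho was 0.55 (exact permutation p = 0.0439 for r and 0.171 for rho; adjusted p = 0.137 and 0.342). For COL5A1 and SPARC rho was 0.90 (exact permutation p = 0.0400 for r and 0.00456 for rho; adjusted p = 0.137 and 0.0639), and r was 0.78 without that animal. For COL5A1 and FBN1 rho was 0.79. Without Korean native pigs 3 and 4, the 2 arrays farthest from the median of COL5A1, r was 0.69 with FBN1 and 0.53 with FN1. In the same arrays it was 0.21 with DCN and 0.19 with LUM. Without the 2 arrays farthest from the median of the other gene, r was 0.05 with FBN1 and -0.40 with FN1. COL3A1 had negative r with all 7 other genes, the lowest -0.62 with LUM (rho = -0.60; exact permutation p = 0.0701 and 0.132; adjusted p = 0.164 and 0.309), and -0.26 without Korean native pigs 1 and 3, the 2 arrays farthest from its median. Without Korean native pig 3 alone, r of COL3A1 turned to 0.31 with FBN1, 0.19 with SPARC, 0.13 with COL5A1 and 0.10 with DCN. It stayed negative with LUM (-0.41), COL1A2 (-0.40) and FN1 (-0.14). COL1A2 and COL3A1, whose products share fibrils, had r = -0.15 and rho = 0.19 (exact permutation p = 0.736 and 0.665; adjusted p = 0.793 and 0.846), and its r turned with the arrays left out: 0.63 without Yorkshire 2 and 4, the farthest for COL1A2, -0.51 without the 2 farthest for COL3A1, and -0.40 with Korean native pig 3 left out.

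With that animal left out, all 10 pairs of the 5 other genes were still positive (r from 0.26 to 0.85, median 0.69), as were 2 of the 3 collagen pairs and 12 of the 15 between the groups. That set was computed after the data had been seen.

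**Figure D4:**
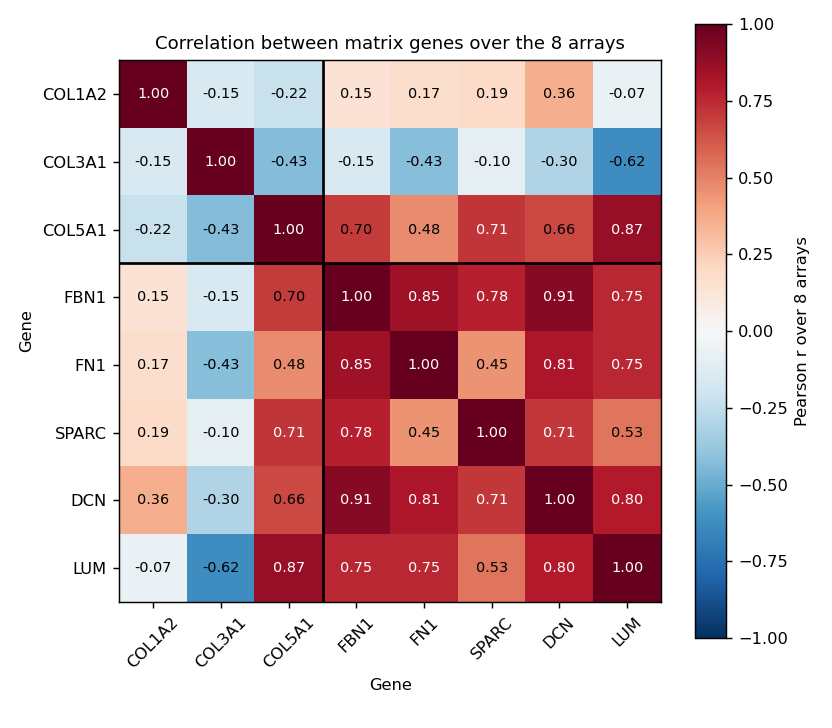
Pearson r over the 8 arrays for each pair of the 8 matrix genes on log2(signal + 32), with lines between the fibrillar collagens and the other genes. Each gene is represented by its brightest probe set. The lower right block is positive throughout (0.45 to 0.91), COL3A1 is negative against all 7 others, and COL5A1 is positive with FBN1, FN1, SPARC, DCN and LUM. Without Korean native pig 3, r of COL3A1 turns positive with COL5A1, FBN1, SPARC and DCN.

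Genes outside the list whose profile was most like that of the 5 other matrix genes were sought among 5323 genes, by Pearson r with their mean deviation over the 8 arrays. The 5 nearest were FASN (r = 0.97), which makes palmitate in fat synthesis, CCDC80 (0.96), a secreted protein of the matrix and of fat tissue, TMEM151B (0.95), SCD (0.95), the desaturase that makes oleate, and DLC1 (0.93). Spearman rho was 0.93, 0.90, 0.83, 0.93 and 0.86. SCD had signals of 8733, 1312, 336 and 1947 in Korean native pigs and 5332, 9194, 6428 and 1170.4 in Yorkshire pigs. FASN had 1336, 388, 233 and 985 and then 892, 1272, 1762 and 421. CCDC80 had 2461, 1008, 324 and 1305 and then 1849, 1663, 2615 and 1125. In SCD, FASN and CCDC80 Korean native pig 3 was the lowest of the 8, as it was for LUM, and without it r was 0.90, 0.97 and 0.90. Dimmer probe sets of CCDC80, FASN and TMEM151B followed less closely (r = 0.44, 0.49 and 0.58). For the mean of the collagens the 5 nearest were LOC396787 (0.98), GGA2 (0.96), NIFK (0.96), HMGN4 (0.95) and TCF4 (0.94), while COL1A2, COL3A1 and COL5A1 themselves had r of 0.52, 0.56 and 0.06 with that mean. A second probe set of GGA2 had r = 0.58 with it, that of NIFK -0.09 and that of HMGN4 -0.45. These genes were picked as the highest of 5323 on 8 arrays, so no p is given.

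Markers of the cells that make matrix moved partly with the 5 other matrix genes. Of 10 fibroblast markers listed, 7 were tested, and 6 lay below 0 between the breeds, with a median of -0.20. Without Yorkshire 3 it was 4 of 7, with a median of -0.045, and with quantile normalization 5 of 7. DPT and MFAP5 among these markers are also in the lists of matrix genes given further on. The mean deviation of the 7 markers was -0.41 on Korean native pig 3, -0.46 on Korean native pig 2 and 0.57 on Yorkshire 3. On these arrays the 5 matrix genes stood at -0.96, -0.25 and 0.56. On Korean native pig 3 THY1, a fibroblast surface protein, read 477, against 1086 to 2189 on the other 7 arrays. PDGFRB, a receptor of fibroblasts and pericytes, read 1712 there, inside its range of 1567 to 2508 on the others. The summed signal of the 7 markers ranged from 9981 to 18308 in Korean native pigs and from 12907 to 18897 in Yorkshire pigs. In it VIM alone read 5879 to 11608 over all arrays. The 6 adipocyte markers tested stood at -0.84 on Korean native pig 2, -0.09 on Korean native pig 3, 0.48 on Yorkshire 2 and 0.55 on Yorkshire 3. Their summed signal ranged from 5339 to 11606 in Korean native pigs and from 6926 to 13720.3 in Yorkshire pigs, and 5 of 6 lay below 0 (median -0.55). Muscle fibre markers stood at 0.12 on Korean native pig 3. Between the breeds 9 of the 10 muscle fibre markers lay below 0 (median -0.29, or -0.03 with quantile normalization), beside 8 of 8 and -0.33 for the matrix genes. Of the smooth muscle markers 3 of 4 did (median -0.35, or 2 of 4 and -0.16 without Korean native pig 3), and 3 of 5 endothelial markers (median -0.15). Above 0 lay 2 of 3 red cell markers (median 0.07) and 2 of 2 leukocyte markers (median 0.07). Both leukocyte markers lay below 0 without Korean native pig 4. Of the 5 cartilage and bone markers with a probe set 0 passed the filter, and SOX9 was below 91.5 on all 8 arrays. For tendon only CILP was tested, at 1331 on Korean native pig 3 and 1375 on Yorkshire 4, its 2 lowest arrays, and at 1838 to 3305 on the others. The part of these cell types in the matrix values was not tested.

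The rest of the matrix pathway was described from 10 lists by role. Of 138 genes listed 74 had a probe set and 59 were tested, of which 35 lay below 0 and 24 above, with a median of -0.11. With arrays centred on their median the split was 32 and 27. By limma 0 of the 59 passed (adjusted p = 0.999), and 2 were under an unadjusted p of 0.05, MMP14 and TGFBR1, where 3.43% of all genes were. In 2 the breeds did not overlap, BMP1 and TGFBR1, where 2.25% of all genes did not.

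Further collagens and the genes that process them had mostly negative changes. COL5A3, a minor fibrillar chain, was at -0.25, and the type VI chains COL6A2 and COL6A3 at -0.36 and -0.21. Of 8 genes of collagen synthesis and crosslinking 7 lay below 0 (median -0.17, or 6 of 8 and -0.10 with arrays centred on their median). BMP1, the protease that trims procollagen, averaged 133 ± 14.9 in the Korean breed and 195 ± 32.7 in Yorkshire animals (SD, n = 4), with a log2 change of -0.45 (SE 0.26), or -0.20 on a second probe set. LOXL1, which crosslinks elastin and collagen, was at -0.54 (SE 0.33). Of 6 basement membrane genes 4 lay below 0 (median -0.07, or 3 of 6 and 0.01 with arrays centred on their median), with COL4A2 at -0.24 and NID2 at 0.30 (0.02 without Yorkshire 4).

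Genes of the elastic fibre lay lower in Korean native pigs in 4 of 4 (median -0.40), none passing. They included MFAP5, a partner of fibrillin in microfibrils, at -0.73 (SE 0.36), and MFAP2 at -0.64 (SE 0.41), which read below 91.5 on 2 arrays. Small proteoglycans and versican were split 2 and 2, with PRELP at 0.67 (0.30 without Yorkshire 4) and VCAN at -0.30. Matricellular genes were split 4 above and 5 below (median -0.06, or 5 above and 4 below and 0.02 with that centring), with DPT, for dermatopontin, which binds decorin, at -0.66 and SPP1, for osteopontin, at 0.71. SPP1 read 595 on Korean native pig 4 and at most 152 on the other arrays, below 91.5 on 2 of them, and its change was 0.19 without that animal.

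Of 9 proteases and inhibitors 6 lay below 0 (median -0.12, or 4 of 9 and 0.02 without Korean native pig 2). MMP14, the membrane protease that activates MMP2, averaged 79.9 ± 46.2 in the Korean breed and 185 ± 77.3 in Yorkshire animals, with a log2 change of -1.005 (SE 0.43). It read below 91.5 on 2 arrays. PLAU, for urokinase, was at -0.51. Receptors were split 5 above and 4 below (median 0.07), with ITGA5, a chain of the fibronectin receptor, at -0.57 and ITGB5 at 0.31.

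In TGF-beta signalling, a main inducer of collagen genes, 7 of 7 tested genes lay above 0 (median 0.40), under both other scalings too. The count rested on single arrays: without Yorkshire 4 TGFB2 and TGFB3 lay below 0 (5 of 7 above, median 0.11), and without Yorkshire 3 TGFB1, SMAD3 and SMAD4 did (4 of 7, median 0.50). Of these 4 read below 91.5 on 1 or 2 arrays. TGFBR1, a TGF-beta receptor, read 1141, 926, 1586 and 1107 in Korean native pigs and 839.8, 729, 777 and 603 in Yorkshire pigs, so that all 4 Korean native pigs lay above all 4 Yorkshire pigs. For TGFBR1 the log2 change was 0.65 (SE 0.21, 95% interval 0.19 to 1.11), at a limma adjusted p of 0.999, and it was 0.51 to 0.76 with any 1 array left out. BMP4, a ligand of the same family, was at 0.49 (SE 0.43). The ligand TGFB1 was at 0.01. The difference between this list and the matrix genes was not tested.

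**Figure D5:**
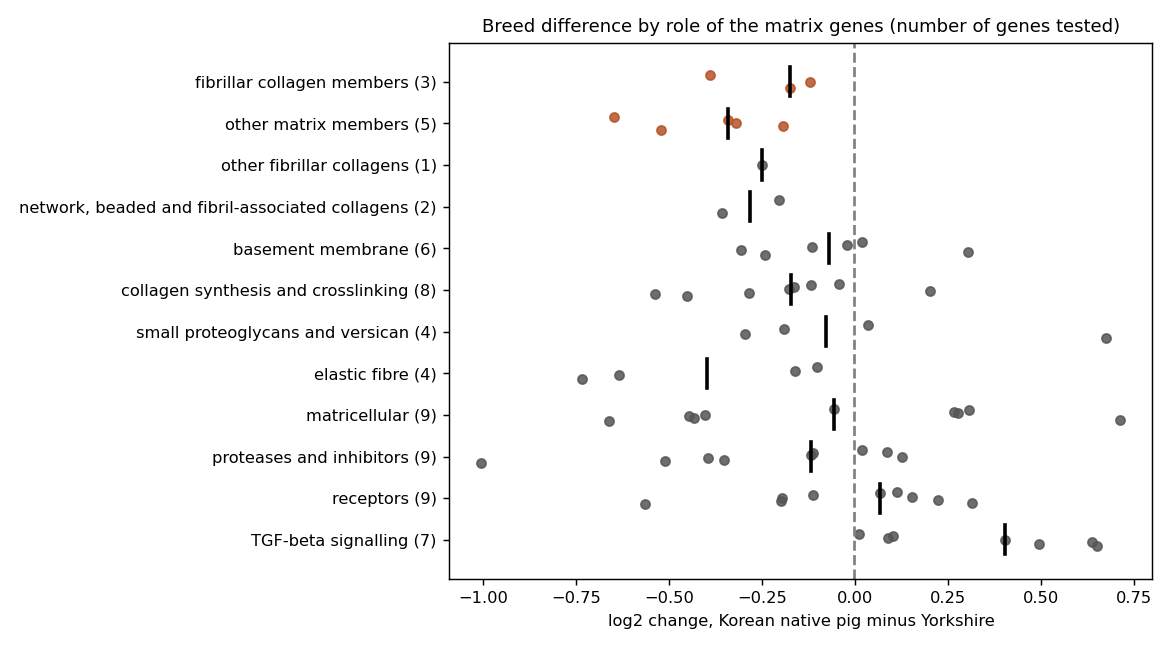
log2 change (Korean native pig minus Yorkshire) of each tested gene by role, with the number of genes tested in brackets, a black bar for the median of the list and a dashed line for the median of all genes tested. The 2 groups of matrix members and the elastic fibre genes lie below 0 throughout, and the 7 genes of TGF-beta signalling lie above it (5 of 7 without Yorkshire 4).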

How the data were processed

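The authors deposited linear signal intensity values, 1 per probe set and array, for 24123 probe sets on 8 arrays. The submitters' processing notes name GCOS 1.3. The sources used here do not give how probes were summarised or whether any were filtered. The mean without the outer 2% of values was 500.1 to 500.2 on each array, so the deposited intensities had been scaled per array, and each change is relative to the rest of its array. Gene symbols came from GEO's platform annotation, which can be old: 10099 probe sets had 1 symbol, 198 several and 13826 none. By gene number 9989 matched the Sscrofa11.1 gene table and 0 symbols changed.

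Values were used as log2(signal + 32), so changes of dim probe sets are understated. After removal of 124 control probe sets and of the dimmest 40% of the rest (signal under about 98.6), 14399 remained. These were fitted on all 8 arrays by limma (version 3.58.1, R 4.3.3), using lmFit followed by eBayes with a trend on mean intensity. The fit was tested on simulated data. The threshold was an adjusted p of 0.05 (Benjamini-Hochberg). With 4 arrays a breed the precision was limited, at a median standard error of 0.28. For correlations an exact permutation test (two-sided) ran over all pairings.

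The members and gene lists were chosen with earlier results of these data known. Named genes were all members, the 2 of smallest p in each list of other matrix genes where none passed, and the 5 nearest in profile to each group. Genes named outside this rule (TGFB1, TGFB2, TGFB3, SMAD3, SMAD4, the cell type markers given by array) were chosen after their values were seen. Alternatives were other pseudocounts, filters, scalings, blocks, and arrays left out. In the main fit the arrays were not paired by replicate number, although the brightness of the hybridisation controls went with that number in both breeds.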

Additional observations from a re-analysis of the deposited data

How the results depend on the processing

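No matrix probe set passed under any of 13 alternatives or with any 1 of the 8 arrays left out. With the replicate block 1 probe set of the array passed, which was not among the matrix genes listed, and the pair correlations of same-numbered arrays ranged from -0.04 to 0.31. With 1 array left out the median change ranged from -0.40 to -0.10 for the collagens, from -0.51 to -0.21 for the other matrix genes, and their contrast from -0.15 to 0.37. Among the 4 arrays whose hybridisation controls were bright the collagen median was -0.50, the other matrix median -0.59 and the contrast 0.43, and COL1A2 turned to 0.14. Within the dim ones these were -0.24, -0.11 and -0.075, a turned sign of the contrast, and COL3A1 turned to 0.26, FN1 to 0.10 and the second COL5A1 probe set to 0.094. Without the 2 arrays of high 3' to 5' ratio COL3A1 was at 0.30 and that COL5A1 probe set at 0.0116, and centring on array medians put it at 0.047. With 1 array left out COL1A2 ranged from -0.41 to 0.12, COL3A1 from -0.40 to 0.13, FN1 from -0.45 to 0.054 and the second COL5A1 probe set from -0.16 to 0.043. Over the same omissions the first COL5A1 probe set ranged from -0.55 to -0.17, FBN1 from -0.72 to -0.32 (its dimmer probe set from -0.87 to -0.23), SPARC from -0.51 to -0.11, DCN from -0.50 to -0.21 and LUM from -0.93 to -0.08. The causes were not tested. The number of pairs of matrix genes with a positive correlation was 19 of 28, and 24 without Korean native pig 3. That alternative was chosen after seeing the data, as was leaving out each array for the wider lists and the cell type markers.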
